A study of Caenorhabditis elegans with 82 samples.

Results

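The insulin-like peptide genes of Caenorhabditis elegans are described here across 6 life stages and 4 bacterial diets. The members were all protein-coding genes whose WormBase symbol is ins- followed by a number, together with daf-28, which gave 39 of the 46748 genes counted. Worms of the N2 strain, the laboratory wild type, were raised at 20 °C, with no mutation, transgene or drug in any group. Their food was Escherichia coli OP50, Ochrobactrum MYb71, an isolate labelled MYb65 or a diet labelled Mix. The text of the study names Ochrobactrum MYb237 and not MYb65, and describes no mixture. MYb65 was taken to be the isolate MYb237 and Mix to be a mixture of both isolates, and the labels are used here. Whole hermaphrodites were sampled as larvae of the L2, L3 and L4 stages (labelled 6, 24 and 48 h). They were also sampled as adults (Ad1, labelled 72 h, and Ad3 and Ad7, labelled 3 and 7 days). In the study the hours run from the placing of larvae on the bacteria, and the days are days of adult age. Larvae were washed off the plates and adults were picked by hand, so the way of collection and the step from L4 to Ad1 cannot be told apart. Of the 82 libraries, 80 were compared, 18 on OP50, 24 on MYb71, 20 on MYb65 and 18 on Mix, with 2 to 4 replicates per group from independent runs of the experiment.

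Insulin-like peptides are small secreted proteins that bind DAF-2, the insulin and IGF receptor of the worm. Signalling from DAF-2 runs through the kinases AGE-1, PDK-1 and AKT-1 and keeps the transcription factor DAF-16 (FOXO) out of the nucleus, which promotes growth and reproduction over dauer arrest and long life. Some peptides act as agonists of the receptor, among them DAF-28, INS-4, INS-6 and INS-7, while INS-1, INS-17 and INS-18 act against it in genetic assays. Most members are made in neurons, and several also in the intestine or the hypodermis. The peptides are cut from precursors by proprotein convertases such as EGL-3 and are released from dense core vesicles.

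Total counts of the 80 libraries ranged from 10513060 to 74552875 (median 21317777), and each of these libraries was closest to its own stage in its counts over all genes. The libraries labelled OP50 L2 replicate 3 and OP50 L3 replicate 3 were not, with a correlation across genes of 0.772 and 0.739 to their labelled stage against 0.994 with Ad3 and 0.993 with Ad7. The peptide genes showed the same contrast, since ins-35 had 0 counts in the second of these libraries and 25.1 to 98.2 CPM (read counts scaled to library size) in the other OP50 L3 libraries. Both were set aside, and results that depend on them are given with and without them. A further 2 MYb65 libraries carry a title that names an earlier stage than their time point, and were placed by the time point. Over all genes both were closest to the stage of that time point (correlation 0.991 with L3 and 0.990 with L4).

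The family is clustered in the genome. Of the 39 genes, 25 lay in 7 groups with gaps of at most 20000 bp (build WBcel235), and 15 were on chromosome II and 10 on chromosome I. The largest group, on chromosome I from 14012369 to 14037777, held the 7 genes ins-24 to ins-30, and 6 of these had their highest mean level at L2. The group on chromosome II from 5988524 to 6011321 held ins-2, ins-3, ins-4, ins-5, ins-6 and ins-20, of which 3 were highest at L2, 2 at L3 and 1 at Ad7. Neighbours thus did not always share the stage of their highest mean. Over all diets, ins-19 and ins-31, side by side on chromosome II between 3126037 and 3127831, were highest at Ad7 and Ad1. On MYb71 alone both were highest at Ad1, and on OP50 ins-31 was highest at L4. The counts of ins-19 were low, with 1.18 CPM as its highest stage mean. The exons of ins-10, ins-34 and ins-36 overlap genes on the other strand (vps-39, nkcc-1 and Y53H1A.7), and those of ins-13 and ins-37 overlap acdh-2 and 2 non-coding RNA genes. The libraries do not mark the strand, so reads in these overlaps cannot be assigned to either gene.

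All 39 members had counts in at least 1 library, and 31 passed the filter on low counts in the model over all stages. The 8 that did not were ins-8, ins-13, ins-15, ins-16, ins-19, ins-25, ins-32 and ins-36. Their highest stage mean ranged from 0.00979 CPM for ins-13 to 1.18 CPM for ins-19. Over the 39 genes, 21 had their highest mean at L2, 8 at L3 and 4 at L4, while 2 were highest at Ad1 and 4 at Ad7, and none at Ad3. Among the 31 that passed the filter, these numbers were 18, 7 and 3, with 2 at Ad1 and 1 at Ad7. The stage of the highest mean was the same on all 4 diets for 21 of the 39 members, of which 18 had passed the filter.

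**Figure D1:**
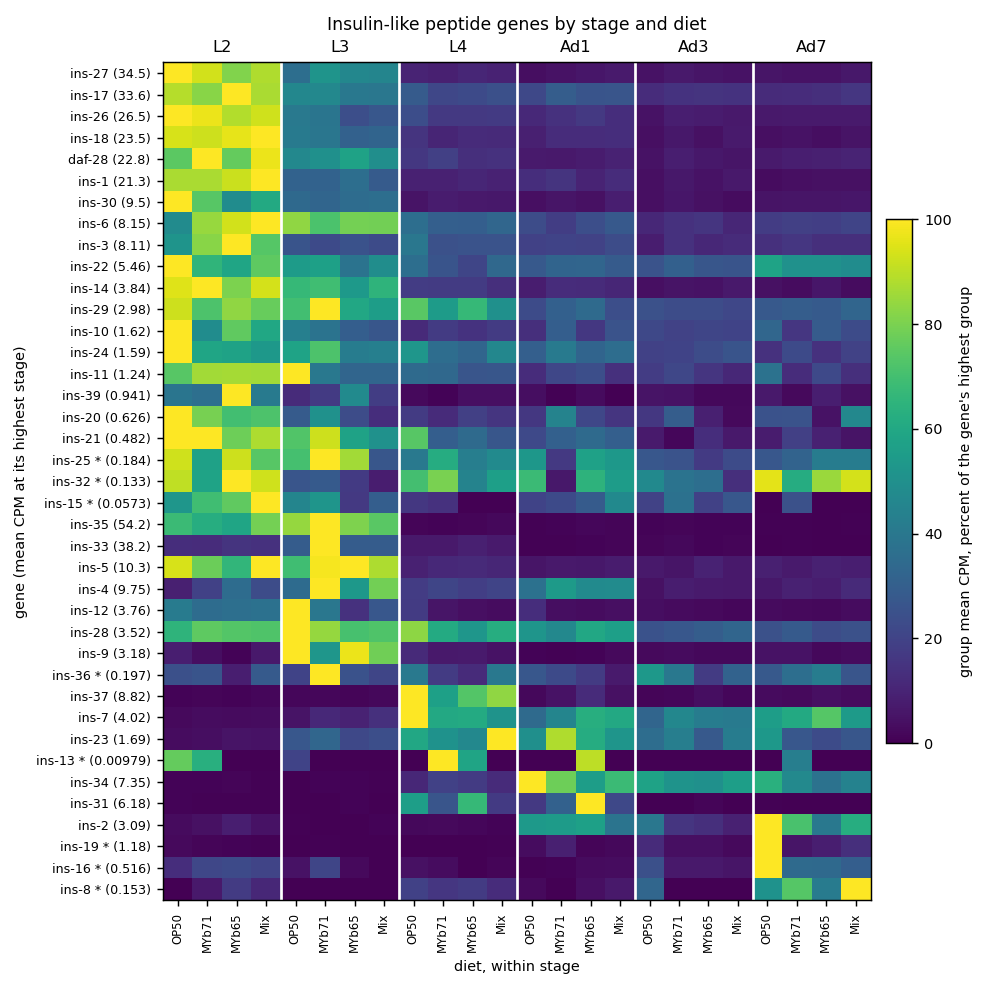
Group mean CPM of the 39 insulin-like peptide genes (rows) in the 24 groups of stage and diet (columns), as a percent of each gene's highest group, with the mean CPM at the highest stage in parentheses and an asterisk at the 8 genes below the count filter. The bright block at the upper left holds the 21 genes highest at L2, and the few bright cells at the lower right belong to ins-34, ins-31, ins-2, ins-19, ins-16 and ins-8.

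The summed level of the family was lower at later stages, which is a description with no test. At L2 the 39 genes together had 249 CPM in the lowest library, 272 in the median and 325 in the highest (n = 12). At L3 the values were 162, 190 and 449 CPM (n = 13), and at L4 52.7, 71.6 and 127 CPM (n = 13). No L4 library reached the lowest L3 library. In adults the lowest, median and highest sums were 38.8, 68.9 and 126 CPM at Ad1, 29.1, 36.8 and 49.1 CPM at Ad3 and 32.3, 42.7 and 51.2 CPM at Ad7 (n = 14 each). The makeup changed as well. The share of ins-35 in the sum was 15.2% at L2 and 24.1% at L3, while ins-17 with 11.5% was first at L4, and ins-17 and ins-34 led at Ad3 with 14.4% and 14.2%.

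**Figure D2:**
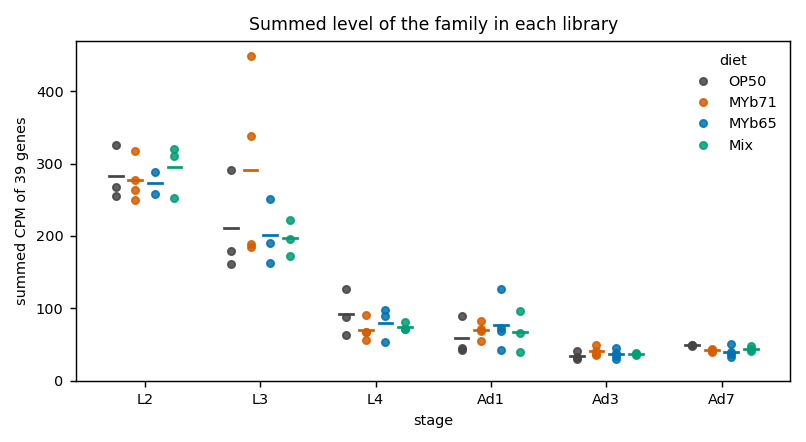
Summed CPM of the 39 genes in each of the 80 libraries (points) by stage, coloured by diet, with short lines at the group means. The 2 highest L3 libraries are MYb71 replicates 4 and 2, at 449 and 338 CPM, followed by OP50 replicate 4 at 291 CPM. The MYb71 replicates 1 and 3 at L3 are at 189 and 185 CPM. All Ad3 and Ad7 libraries lie below the L2 and L3 libraries.

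Every member that could be tested differed between stages, 31 of 31 by the quasi-likelihood F test of edgeR at an adjusted p of 0.05, against 99.2% of all 17267 genes tested. This share is near the background, and the direction of each step carries more information. From L2 to L3, 5 of the 31 rose and 15 fell, where 23% of all genes rose and 37.9% fell. From L3 to L4, 6 rose and 19 fell (43.1% and 40.6% of all genes), and the median log2 change of the members was -0.89 against 0.03 over all genes. From L4 to Ad1, 3 rose and 12 fell (32% and 34.4%), and from Ad1 to Ad3 none rose and 16 fell (25.5% and 36.2%), with members' medians of -0.43 and -0.71 against -0.02 and -0.15. From Ad3 to Ad7, 3 rose and 3 fell (6.89% and 14.2%).

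The peptides that act against DAF-2 signalling were highest in the youngest larvae. The level of ins-17 was 28.5, 32.7 and 40.1 CPM at L2 (lowest, median and highest library) and 11.7, 16.4 and 23.1 CPM at L3. By Ad7 it was 3.75, 4.82 and 6.53 CPM, and no L3 library overlapped with L2 or Ad7. The log2 change of ins-17 was -1.10 (SE 0.13, adjusted p = 1.45e-11) from L2 to L3 and -0.89 (SE 0.13, adjusted p = 2.25e-09) from L3 to L4. For ins-18 the L2 libraries had at least 19.3 CPM (median 23.7), those of L3 spanned 6.11 to 12.2 CPM (median 8.90) and those of L4 1.83 to 4.61 CPM (median 2.72), with no overlap between the 3 stages. For ins-1, an insulin-like gene of many neurons that also acts in learning, the L2, L3 and L4 libraries spanned 18.1 to 25.9 CPM (median 19.6), 5.25 to 9.43 CPM (median 7.67) and 1.06 to 3.75 CPM (median 1.88). Both genes thus fell at each larval step, with log2 changes of -1.47 (SE 0.15) and -1.58 (SE 0.15) for ins-18 and -1.60 (SE 0.18) and -1.76 (SE 0.19) for ins-1. Per kilobase of exon, the 3 genes together had a median of 138.9 CPM at L2, 60.2 at L3, 23.3 at L4 and 12.2 at Ad7.

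The agonists followed several profiles. The level of daf-28, whose product keeps larvae from entering dauer, was 16.8, 22.2 and 30.7 CPM at L2, 8.57, 12.2 and 20.8 CPM at L3 and 1.03, 3.85 and 6.11 CPM at L4. It fell by 0.88 (SE 0.17, adjusted p = 8.49e-06), 1.72 (SE 0.18, adjusted p = 1.54e-14) and 1.08 (SE 0.17, adjusted p = 1.34e-07) on the log2 scale at the steps to L3, L4 and Ad1, although the L2 and L3 libraries overlapped. In contrast, ins-6, which promotes exit from dauer, was 3.11, 9.20 and 10.7 CPM at L2 and 5.45, 7.12 and 11.8 CPM at L3, and did not differ between these stages beyond the spread (log2 change -0.13, SE 0.16, adjusted p = 0.515). It then fell at L4 by 1.31 (SE 0.16, adjusted p = 2.73e-11). The agonist gene ins-4 rose from 0.951, 2.14 and 7.19 CPM at L2 to 2.20, 8.81 and 22.2 CPM at L3 and was again high at Ad1, with 1.92, 5.81 and 14.2 CPM. Its log2 changes along the series were 1.69 (SE 0.26), -1.80 (SE 0.25), 1.19 (SE 0.24) and -2.74 (SE 0.25), each with an adjusted p of at most 1.50e-05. The rise at Ad1 was 0.75 (adjusted p = 0.0196) without the replicates numbered 3.

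The remaining agonist, ins-7, went the other way. It is a gene of the intestine and of neurons that DAF-16 holds down. Its level was 0.0443, 0.162 and 0.395 CPM at L2 and 1.82, 3.60 and 11.1 CPM at L4, with no overlap, and 1.87, 3.35 and 8.36 CPM at Ad7. It rose at L3 (log2 change 1.62, SE 0.35, adjusted p = 5.71e-05) and at L4 (2.74, SE 0.30, adjusted p = 1.64e-13). The first of these calls was lost with the 2 set-aside OP50 libraries (0.87, adjusted p = 0.0816), in which ins-7 stood at 4.06 and 3.47 CPM. Summed per kilobase, the 4 agonists had medians of 53.5, 50.9 and 26.6 CPM in L2, L3 and L4 larvae, and 23.7, 11.8 and 16.4 CPM in Ad1, Ad3 and Ad7 adults.

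Other members of high level in larvae were ins-35, ins-27 and ins-33. Per kilobase of exon, ins-35 and ins-27 were the highest of the family at L2 with 112 and 111 CPM, and ins-35, ins-33 and ins-27 at L3 with 142, 73.3 and 55.2 CPM. The drop of ins-35 was the largest of any member from L3 to L4. Its libraries spanned 25.1 to 98.2 CPM at L3 (median 45.6) and 0.116 to 2.82 CPM at L4 (median 0.753), a log2 change of -5.78 (SE 0.35, adjusted p = 2.78e-25), and no later library exceeded 2.99 CPM. The level of ins-27 was 29.3, 32.9 and 45.1 CPM at L2 and 1.98, 3.01 and 6.30 CPM at L4, and it fell at L4 by 2.26 (SE 0.16, adjusted p = 1.66e-21). For ins-33 the L3 libraries varied widely, from 13.6 to 172.7 CPM (median 22.9), and the highest values were 107 and 172.7 CPM in MYb71 replicates 2 and 4. It rose at L3 (log2 change 1.72, SE 0.33, adjusted p = 4.67e-06) and fell at L4 (-2.70, SE 0.33), Ad1 (-3.11, SE 0.34) and Ad7 (-1.89, SE 0.38).

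A single larval stage stood out for ins-9 and ins-37. The level of ins-9 was at most 0.584 CPM at L2 and at most 0.638 CPM at L4, and 1.71, 2.91 and 4.45 CPM at L3. With a log2 change of 3.86 (SE 0.38, adjusted p = 3.05e-14) it had the largest rise from L2 to L3, and it fell by 3.37 (SE 0.36, adjusted p = 6.70e-14) at L4. The level of ins-37 was at most 0.346 CPM at L3 and was 2.89, 8.52 and 15.6 CPM at L4, a log2 change of 5.34 (SE 0.46, adjusted p = 1.33e-17). At Ad1 it was at most 4.81 CPM (median 0.312), with a log2 change of -3.78 (SE 0.41, adjusted p = 4.20e-13).

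The most variable member was ins-31. It was at most 0.193 CPM at L3 and 0.00, 1.30 and 27.3 CPM at L4, which gave the largest rise of any member at any step (log2 change 7.30, SE 0.95, adjusted p = 1.30e-10). Within L4 the high libraries were replicate 1 on MYb65 (27.3 CPM), on OP50 (23.0 CPM) and on MYb71 (13.2 CPM), while the other 10 libraries were at most 3.81 CPM. At Ad1 the values were 0.00, 1.74 and 53.6 CPM, and from Ad3 on none exceeded 0.796 CPM (log2 change at Ad3 -6.11, SE 0.83, adjusted p = 4.31e-09). The spread within MYb65 Ad1 was 178% of the mean. That group's replicate 1, with 53.6 CPM of ins-31 and 4.81 CPM of ins-37, also had the highest summed level of 8 sperm genes at Ad1, 353.6 CPM against 2.64 to 96.0 CPM in the other 13 libraries. The sum of these sperm genes was 459 to 1232 CPM at L4 and 0.701 to 1.35 CPM at L3, and all 8 rose from L3 to L4 and fell from L4 to Ad1. The part of sperm gene content in the values of ins-31 and ins-37 was not tested. Without the replicates numbered 1, the fall of ins-37 from Ad1 to Ad3 (log2 change -1.37, SE 0.43, adjusted p = 0.00414) was lost (-0.24, adjusted p = 0.642).

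**Figure D3:**
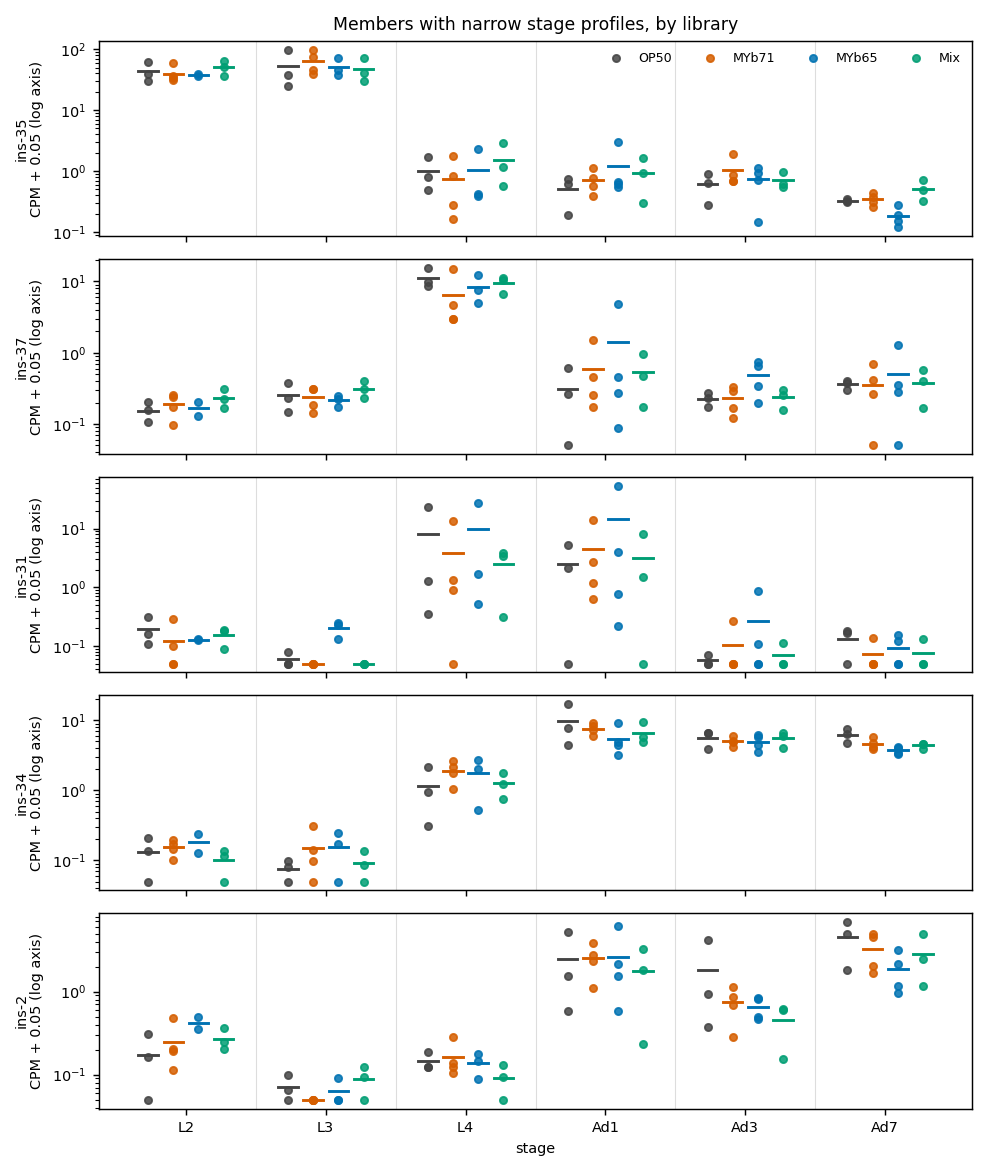
CPM plus 0.05 on a log axis of ins-35, ins-37, ins-31, ins-34 and ins-2 in each of the 80 libraries, by stage and diet, with short lines at the group means. The level of ins-35 drops between L3 and L4, ins-37 is at least 2.89 CPM in every L4 library, and ins-31 ranges from 0.00 to 53.6 CPM within Ad1.

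Adult worms kept or gained a small set of members. The level of ins-34 was at most 0.263 CPM at L3, 0.263 to 2.63 CPM at L4 (median 1.73) and 3.16 to 17.1 CPM at Ad1 (median 6.58), with log2 changes of 4.24 (SE 0.34, adjusted p = 2.57e-19) and 2.26 (SE 0.25, adjusted p = 6.16e-13). The first change was 2.05 (adjusted p = 0.00149) with the 2 set-aside libraries, of which the OP50 L3 library had 8.94 CPM of ins-34, and 2.74 (adjusted p = 5.58e-08) with the 2 MYb65 libraries placed by title. It stayed between 3.26 and 7.48 CPM at Ad3 and Ad7. For ins-2 the L4 libraries were at most 0.231 CPM, those of Ad1 were 0.187 to 6.15 CPM (median 1.92) and those of Ad7 0.902 to 6.85 CPM (median 2.25). It rose at Ad1 by 4.70 (SE 0.47, adjusted p = 2.33e-14), fell at Ad3 by 1.45 (SE 0.35, adjusted p = 3.20e-04) and rose again at Ad7 (1.84, SE 0.35, adjusted p = 4.35e-05). The values of ins-2 in young larvae were low. Its direction at the larval steps turned only with the adult-like set-aside libraries. The log2 change from L2 to L3 was -3.36 (SE 0.64, adjusted p = 5.55e-06) without them and 0.82 (adjusted p = 0.375) with them, and that from L3 to L4 was 1.83 (SE 0.73, adjusted p = 0.0176) and -2.40 (adjusted p = 0.00694).

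At Ad7 the highest members per kilobase were ins-22 with 11.2 CPM, ins-34 with 9.26 and ins-17 with 9.10. The level of ins-22 had fallen from 5.36 CPM in the median L2 library to 1.91 CPM at Ad3, and at Ad7 it was 3.01, 3.73 and 5.32 CPM (log2 change 0.84, SE 0.16, adjusted p = 2.91e-05). The rise of ins-6 at the same step (0.45, SE 0.16, adjusted p = 0.0424) and the fall of ins-1 (-0.50, SE 0.19, adjusted p = 0.0483) were near the threshold and were lost in 5 and 11 of 12 alternative analyses. The medians of ins-11, an intestinal peptide gene of pathogen avoidance, were 1.27 CPM in L2, 0.470 in L3 and 0.249 in Ad1 libraries. Its falls at L3 (-0.90, SE 0.35, adjusted p = 0.0223) and Ad1 (-0.82, SE 0.37, adjusted p = 0.0468) were also lost in 5 alternatives each, and the second turned to 0.23 without the replicates numbered 2.

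The summed level of markers of neurons, the main source of these peptides, was also lower from L4 on than in younger larvae. Of 12 neuronal genes, 10 fell and none rose from L2 to L3, where 37.9% of all genes fell, and 11 fell and none rose from L3 to L4, where 40.6% fell, with medians of -0.66 and -1.59. From L4 to Ad1, 3 rose and 3 fell (32% and 34.4% of all genes), and from Ad1 to Ad3 1 rose and 8 fell (25.5% and 36.2%). Their summed level was 675 to 851 CPM at L2, 505 to 643 CPM at L3, 267 to 344 CPM at L4 and 293 to 343 CPM at Ad7. Its medians from L4 on were 294, 322, 296 and 316 CPM. The largest part of it was snb-1, with means of 148 CPM at L4 and 214 CPM at Ad3. The sum from L4 on therefore does not show the course of the other markers. Only tph-1 of the 12 was at 0 in some libraries, all of them adult (1 of Ad1, 1 of Ad3 and 2 of Ad7). At the same time the sum of 9 oocyte and eggshell genes was 23.4 to 33.3 CPM at L2 and 15041 to 18271 CPM at Ad7. In whole worms, fewer cells of a type and less RNA per cell cannot be told apart, and the part of tissue proportions in the stage profiles was not tested. The genes that cut and release the peptides were mixed. Of 9 such genes, 2 rose and 6 fell at L3 (23% and 37.9% of all genes). At L4 none rose and 7 fell (43.1% and 40.6% of all genes), with a median of -1.32. The convertase gene egl-3 had a mean of 448 CPM at L2, 254 at L3, 94.9 at L4 and 46.9 at Ad7, and unc-31, needed for dense core vesicle release, 34.2, 27.6, 8.98 and 5.19 CPM. In contrast, the convertase gene bli-4 rose at L3 (log2 change 1.17, SE 0.10), from a mean of 111 CPM at L2 to 263, and had 348 CPM at Ad7, and asna-1 had means of 114 CPM at L2 and 132 at Ad7.

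The receptor gene daf-2 was higher in adults than in larvae. Its mean level was 66.3 CPM in L2, 71.8 in L3 and 107 in L4 larvae and 203, 184 and 188 CPM in Ad1, Ad3 and Ad7 adults, although the L4 libraries ranged from 14.3 to 318 CPM. It rose at L4 (log2 change 0.50, SE 0.22, adjusted p = 0.0347) and Ad1 (0.92, SE 0.22, adjusted p = 2.15e-04). Of the 8 genes for the receptor and core cascade, 1 rose and 5 fell at L3 (23% and 37.9% of all genes) and 4 rose and 4 fell at L4 (43.1% and 40.6%), a split close to that of all genes. At Ad1, 6 rose and 1 fell (32% and 34.4%), and at Ad3 5 rose and 2 fell (25.5% and 36.2%). The level of daf-16 rose from L2 to L3 (log2 change 0.47, SE 0.12, adjusted p = 5.81e-04), and its means were 131 CPM at L3 and 194 at Ad7.

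The question put by the diets was whether peptide expression differed on Ochrobactrum. Across the 6 stages few members did. On MYb71, 1 of 31 rose and 1 fell, where 1.79% of all genes rose and 3.14% fell (4.93% in all). On MYb65, none rose and 1 fell, where 1.74% and 1.88% of all genes did (3.62%). On Mix, 1 rose and 1 fell, where 0.985% and 2.24% did (3.23%). These shares are near those of all genes. These comparisons share the OP50 libraries. The same 2 genes, ins-12 and ins-4, gave all of these calls, and the median log2 change of the members was 0.02, -0.02 and -0.06 on MYb71, MYb65 and Mix, against -0.03, -0.02 and -0.06 over all genes.

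**Figure D4:**
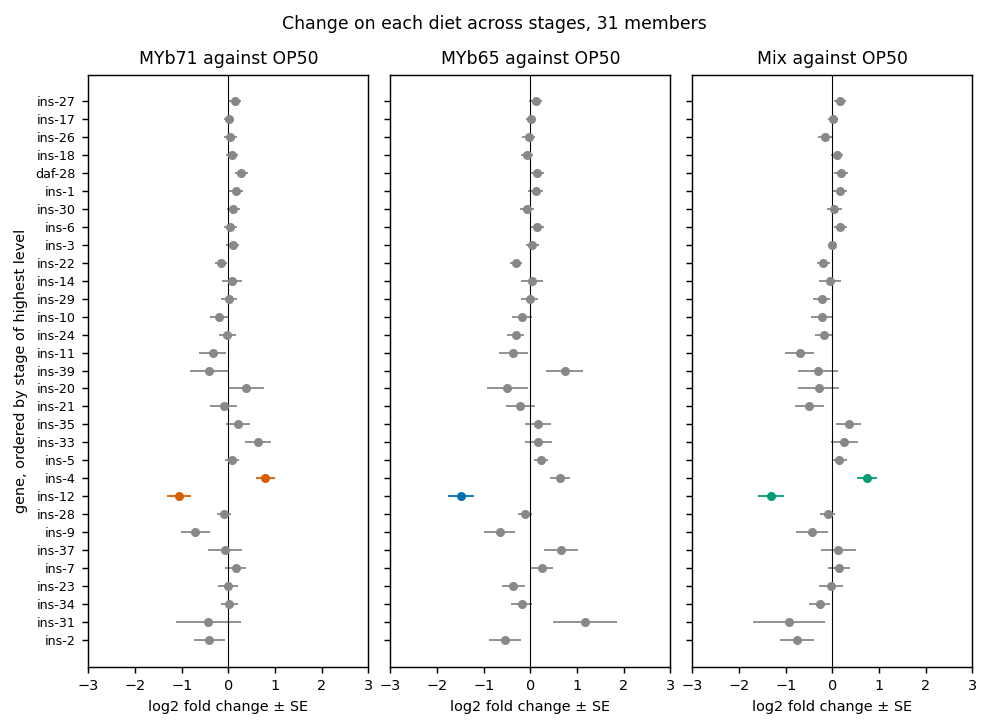
Log2 fold change against OP50 across stages, with its standard error, of the 31 members tested on MYb71, MYb65 and Mix, ordered by the stage of their highest level. Coloured points passed an adjusted p of 0.05, which are ins-12 on all 3 diets, between -1.06 and -1.49, and ins-4 on MYb71 and Mix, at 0.79 and 0.74.

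The level of ins-12, a gene of the chromosome II group with ins-11 and ins-13, was lower on Ochrobactrum. At L3 its OP50 libraries had 6.96, 10.2 and 7.74 CPM. Those on MYb71 had 2.54, 2.30, 2.25 and 6.04 CPM, those on MYb65 1.82, 0.816 and 0.968 CPM and those on Mix 2.62, 1.21 and 2.97 CPM. No library on an isolate or on Mix reached the OP50 values at L3, and the same held at Ad1, where the OP50 libraries had 1.04, 1.53 and 0.686 CPM and the others at most 0.529 CPM. At L2 the diets overlapped, with 2.34, 4.61 and 3.46 CPM on OP50 and 2.01 to 3.99 CPM elsewhere. From Ad3 on all libraries were at or below 0.575 CPM and overlapped as well. At L4 the OP50 replicate 3, with 0.205 CPM, lay within the range of the other diets.

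Across stages the log2 change of ins-12 was -1.06 on MYb71 (SE 0.25, adjusted p = 0.00307), -1.49 on MYb65 (SE 0.28, adjusted p = 7.83e-05) and -1.31 on Mix (SE 0.28, adjusted p = 8.05e-04). Its group mean was below that of OP50 at 6 of 6 stages on MYb71 and on MYb65 and at 5 of 6 on Mix. The change on MYb65 passed in all 12 alternatives (highest adjusted p = 0.0240). The change on MYb71 was lost without the replicates numbered 1 (adjusted p = 0.0656) or 2 (0.188), and that on Mix without those numbered 2 (0.126). Tested at L3 alone, ins-12 fell on MYb65 by 2.73 (SE 0.52, adjusted p = 0.0328), where 0.973% of genes changed in either direction. This call was lost in 10 of 22 alternatives. Among these were leaving out any of its 3 MYb65 or 3 OP50 libraries (adjusted p = 0.0528 to 0.198). Others were leaving out both MYb65 libraries whose title and time point differ (0.133) and placing them by title (0.101). The call was also lost with all 82 libraries (-2.34, adjusted p = 0.360), where the set-aside OP50 L3 library had 0.146 CPM of ins-12. The L3 changes on MYb71 and Mix were -1.20 (SE 0.44, adjusted p = 0.352) and -1.84 (SE 0.49, adjusted p = 0.178).

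The agonist gene ins-4 was higher on Ochrobactrum, with a less stable call. At L2 the OP50 libraries had 0.951, 1.10 and 1.76 CPM, against 2.12, 5.87, 1.29 and 2.12 CPM on MYb71, 3.18 and 7.19 CPM on MYb65 and 5.41, 2.15 and 2.70 CPM on Mix. At L3 they had 6.00, 2.20 and 7.15 CPM, against 11.9, 15.4, 8.90 and 22.2 CPM on MYb71, 5.99, 8.81 and 8.53 CPM on MYb65 and 3.50, 17.3 and 13.7 CPM on Mix. The MYb71 libraries lay above all OP50 libraries at L3, and those on MYb65 and Mix did so at L2. At Ad1 the diets overlapped, with 1.92, 2.78 and 11.6 CPM on OP50. The mean was above that of OP50 at 6 of 6 stages on each diet. Across stages the log2 change was 0.79 on MYb71 (SE 0.20, adjusted p = 0.00886), 0.74 on Mix (SE 0.21, adjusted p = 0.0349) and 0.63 on MYb65 (SE 0.21, adjusted p = 0.0806). The call on MYb71 was lost without the replicates numbered 1, 2 or 4 (adjusted p = 0.159, 0.112 and 0.0502), and that on Mix without those numbered 1, 2 or 3 (0.269, 0.0933 and 0.0863) and with the 2 MYb65 libraries placed by title (0.0824). The change on MYb65 passed without those numbered 3 (0.0119), with all 82 libraries (0.0144) and with the 2 MYb65 libraries placed by their titles (0.0449).

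**Figure D5:**
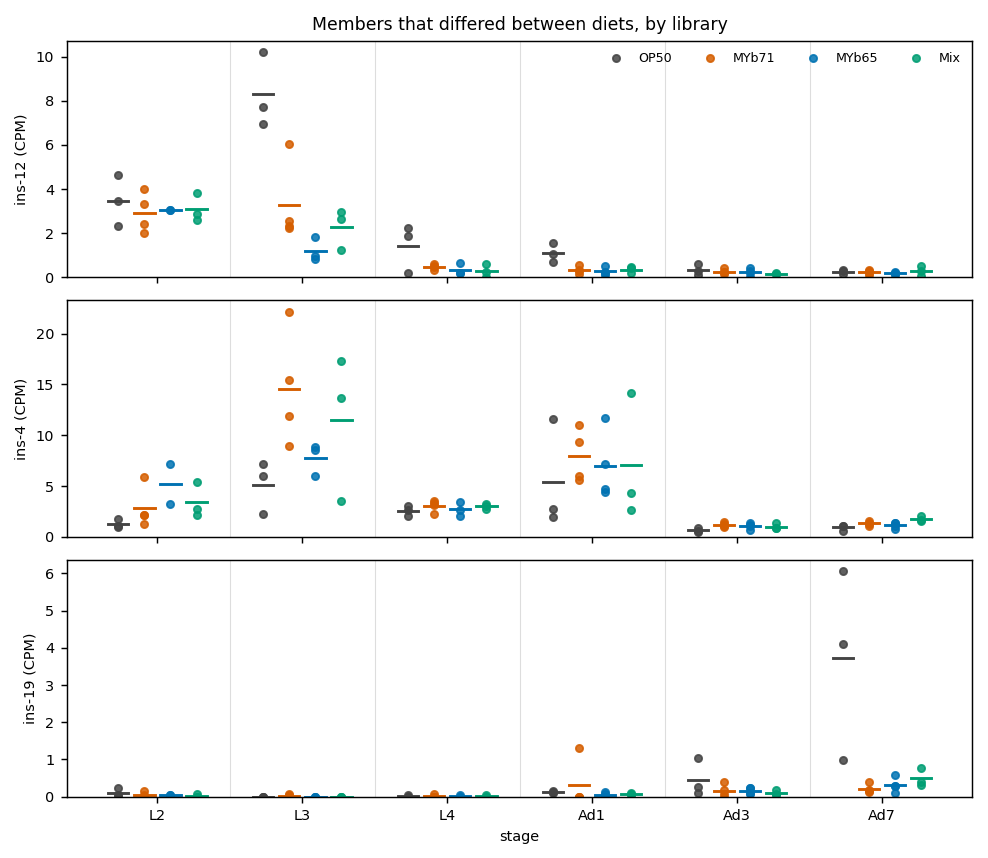
CPM of ins-12, ins-4 and ins-19 in each of the 80 libraries, by stage and diet, with short lines at the group means. The 3 OP50 libraries of ins-12 lie above all others at L3, and those of ins-19 at Ad7, where all libraries on Ochrobactrum are at or below 0.780 CPM.

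Within stages, 22 to 26 members could be tested, and 3 of the 18 comparisons with OP50 gave a call, 1 each. Besides ins-12 at L3, these were the changes of ins-19 at Ad7. This gene was at most 0.227 CPM in every larval library and was at 0 counts in 11 of 13 libraries at L3. At Ad7 the OP50 libraries had 0.979, 6.05 and 4.11 CPM. The MYb71 libraries had 0.382, 0.185, 0.129 and 0.153 CPM, those on MYb65 0.567, 0.280, 0.101 and 0.278 CPM and those on Mix 0.397, 0.313 and 0.780 CPM. The OP50 values did not overlap with any other diet, although they differed among themselves by more than those of the other groups. The log2 change was -4.04 on MYb71 (SE 0.61, adjusted p = 0.00513, 0.669% of genes changed), -3.58 on MYb65 (SE 0.60, adjusted p = 0.0111, 0.733%) and -2.94 on Mix (SE 0.62, adjusted p = 0.0544, 0.512%). It passed the count filter at Ad7 and not in the model over all stages.

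The call of ins-19 on MYb71 was lost in 1 alternative (adjusted p = 0.0676). That on MYb65 was lost without MYb65 Ad7 replicate 2 (adjusted p = 0.0511), in the 71 libraries with at most 3 per group (0.0652) and in a model of all 24 groups (0.0769). At Ad7 the OP50 and MYb65 libraries of equal number deviated together (correlation 0.151 to 0.192), and with the replicate block the change on MYb65 was -3.40 (adjusted p = 0.110). At Ad3 the OP50 libraries of ins-19 had 0.246, 1.03 and 0.0915 CPM and overlapped with the other diets. Its neighbour ins-31 was at most 0.133 CPM in any Ad7 library. In the other 15 comparisons within stages no member passed with edgeR, and 0 to 8 members had an unadjusted p under 0.05. The 8 were of 24 members on MYb71 at L2, where 2231 of all genes had such a p and 231 passed. The 0 was of 25 members on MYb71 at L4, where 609 of all genes had such a p and 23 passed. Whether such a p was more frequent among members than among all genes was not tested. The share of all genes that passed on MYb71, MYb65 and Mix was 1.55%, 0.757% and 0.784% in L2 worms. It was 0.758% on MYb71 and 0.674% on Mix in L3 worms, and 0.145%, 0.0694% and 0.0757% on the 3 diets in L4 worms. In adults it was 0%, 0.00644% and 0% at Ad1 and 0.401%, 0.394% and 0.246% at Ad3. With DESeq2, 8 calls of members were made over the 18 comparisons. The share of all genes called with DESeq2 is not given here, so this count has no background to be read against.

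The peptides of best known function, ins-4 aside, did not pass by diet across stages. For daf-28 the log2 changes were 0.27 on MYb71 (SE 0.14, adjusted p = 0.299), 0.15 on MYb65 (SE 0.15, adjusted p = 0.678) and 0.19 on Mix (SE 0.15, adjusted p = 0.603). Those of ins-6 were 0.04, 0.15 and 0.17 (SE 0.13 to 0.14), and those of ins-7 were 0.16, 0.26 and 0.14 (SE 0.23 to 0.24). Among the antagonists, ins-17 had the narrowest estimates, at 0.00, 0.01 and 0.02 (SE 0.10 to 0.11), followed by ins-18 at 0.07, -0.08 and 0.10 (SE 0.12 to 0.13) and ins-1 at 0.16, 0.11 and 0.16 (SE 0.15 to 0.16). None of these 6 genes passed the threshold on any diet.

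The isolates were not distinguished by the family. Between MYb71 and MYb65, 0 of 31 members passed with edgeR (0.122% of all genes did). An unadjusted p under 0.05 was found for 4 members and for 952 of all 17267 genes. Between Mix and the mean of the isolates, 0 of 31 passed (0.0116%) and none had an unadjusted p under 0.05. The largest difference between isolates was that of ins-31 (-1.60, SE 0.65, adjusted p = 0.764). The change on a diet in adults was also set against that in larvae. It differed for 0 of 34 members on MYb71, MYb65 and Mix, where 0.501%, 0.392% and 0.163% of all genes passed, and for 5 members each at an unadjusted p under 0.05. Of all 18372 genes tested, 1639, 2481 and 1277 had such a p on MYb71, MYb65 and Mix.

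Several DAF-16 target genes changed with diet, while the receptor and cascade genes did not pass. Of the 8 receptor and kinase genes, the 4 negative regulators and the 9 processing genes, none passed on any diet across stages, and daf-2 had log2 changes of 0.22, 0.18 and 0.27 (SE 0.18 to 0.19). The transcription factor gene pqm-1 rose on MYb65 (0.46, SE 0.14, adjusted p = 0.0447), and daf-16 did not pass (0.18, 0.13 and 0.17, SE 0.09 to 0.10). Of 17 DAF-16 target genes tested, 3 rose and 3 fell on MYb71 (4.93% of all genes changed), 3 rose and 2 fell on MYb65 (3.62%), and 2 rose and 3 fell on Mix (3.23%). The lists were chosen with earlier results of these data known and were not tested against each other. The activity of DAF-16 was not measured, and these counts do not give its direction. Those that rose were the lysosomal lipase gene lipl-4 (2.02, 1.89 and 1.83 on MYb71, MYb65 and Mix), the catalase gene ctl-2 (0.42, 0.33 and 0.29) and, on the single isolates, ctl-1 (0.38 and 0.40). Those that fell were dao-3 (-0.51, -0.51 and -0.49), the metallothionein gene mtl-1 on the isolates (-1.18 and -1.31), dod-24 on MYb71 and Mix (-1.29 and -0.90) and the small heat shock gene hsp-16.2 on Mix (-1.45). Of 12 neuronal markers none passed on any diet, and of 8 intestinal markers asp-1 (0.42 and 0.64) and ges-1 (0.37 and 0.35) rose on MYb71 and MYb65, and mtl-2 fell on MYb71, MYb65 and Mix (-3.71, -3.53 and -3.33). The part of the intestine in the changes of the peptide genes was not tested.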

How the data were processed

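Polyadenylated RNA of whole worms was sequenced as paired ends with an Illumina kit that does not mark strand. The deposited values are raw read counts per gene. According to the methods of the study, the authors trimmed reads with Trimmomatic, mapped them to WormBase WS235 with STAR 2.5.3a and made the counts with HTSeq. How multi-mapping reads were counted was not stated in the methods, so the counts of similar members are uncertain. Symbols and coordinates came from WBcel235 (Ensembl release 115), which held 46449 of the gene identifiers.

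From the counts, CPM were computed with TMM-scaled library sizes, and per kilobase of exon where genes were compared. Tests were the quasi-likelihood tests of edgeR 4.0.16 in R 4.3.3 (robust fits, TMM, filterByExpr with minimum count 10, minimum total 15 and share 0.7) with Benjamini-Hochberg adjustment over all genes tested and a threshold of 0.05. All adjusted p-values are of this kind unless another tool is named. A model of stage and diet gave changes across stages and stage steps, 1 model of the 4 diets per stage gave changes within stages, and a model of 24 groups compared adults with larvae. Alternatives were all 82 libraries, 71 libraries, the other placements of 2 MYb65 libraries, RLE size factors, DESeq2 1.42.0, no filter, a replicate block and leaving out replicates. The models were tested on simulated data. All 103 pairs of libraries within groups were compared for duplicates, and none agreed within counting error (chi-square per gene at least 7.76).

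Same-numbered libraries were checked for pairing by the correlation of their deviations from group means. With 3 or more pairs, every correlation was above 0.1 only for OP50 and MYb71 at L2, L3 and Ad1 (lowest 0.104), OP50 and MYb65 at L4 and Ad7 (lowest 0.151) and MYb71 and MYb65 at L4 and Ad3 (lowest 0.104). Counting precision is limited for members below about 1 CPM.

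The text names each member that passed in a diet comparison, the 3 highest per kilobase at each stage, the largest rise and fall at each step and 8 members of known function, and other genes are given by counts. The members, lists and this rule were chosen with earlier results of these data known.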

Additional observations from a re-analysis of the deposited data

Results flagged for a closer look

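Groups of 4 libraries were checked for each named member with a mean of at least 1 CPM, 104 combinations of member and group. Only groups on MYb71 and MYb65 held 4 libraries, so OP50 and Mix were not checked. Combinations that share libraries are not independent. In 15 of the 104, the highest or lowest library stood far from the others (Dixon's ratio), where chance alone gives about 1 in 20. For ins-31 these were MYb65 Ad1 replicate 1 with 53.6 CPM, MYb71 Ad1 replicate 1 with 13.7 CPM and MYb71 L4 replicate 1 with 13.2 CPM. For ins-37 the libraries were MYb65 Ad1 replicate 1 with 4.81 CPM and MYb71 L4 replicate 2 with 15.1 CPM. For ins-12 it was MYb71 L3 replicate 4 with 6.04 CPM, against 2.25 to 2.54 CPM in the other 3, and the same library stood apart for ins-18 with 12.2 CPM. For ins-18 there were also MYb71 Ad1 replicate 3 with 4.15 CPM and MYb71 L2 replicate 3 with 19.3 CPM. For ins-1 the libraries were MYb71 Ad3 replicate 2 (1.67 CPM), MYb71 L2 replicate 1 (23.5 CPM) and MYb71 L4 replicate 2 (3.43 CPM). For ins-35 they were MYb65 Ad1 replicate 3 (2.99 CPM) and MYb71 L2 replicate 4 (59.1 CPM), and for ins-22 MYb71 Ad3 replicate 3 (3.57 CPM).

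For ins-18 all Mix libraries lay above all OP50 libraries at Ad3 (log2 ratio of means 0.74) and below them at L3 (-0.36). This difference between stages was not tested.

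The set-aside libraries held adult levels of several members. The library labelled OP50 L2 replicate 3 had 4.06 CPM of ins-7 and 4.51 CPM of ins-34, where the other OP50 L2 libraries had at most 0.173 and 0.157 CPM. The library labelled OP50 L3 replicate 3 had 11.9 CPM of ins-2, 3.47 CPM of ins-7 and 8.94 CPM of ins-34, where the other OP50 L3 libraries had at most 0.0489, 0.589 and 0.0489 CPM.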

How the results depend on the processing

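Of 63 results for named members, 45 kept their direction and their side of the threshold under every alternative run. Over all 788 alternative values, 64 lost the threshold, 3 gained it and 3 changed direction. The last were ins-2 with all 82 libraries, at 0.82 from L2 to L3 and -2.40 from L3 to L4, and ins-11 from L4 to Ad1 without replicate 2 (0.23), where leaving out the replicates of 1 number gave -1.62 to 0.23. Numbers of members called across stages moved as follows. With all 82 libraries 4 passed on MYb71, 4 on MYb65 and 4 on Mix, where ins-2 and ins-34 joined ins-4 and ins-12, and 1 passed in the comparison of adults with larvae on Mix. With the 2 MYb65 libraries placed by title, 3 passed on MYb65, 1 on Mix, 1 between MYb71 and MYb65 and 1 in adults against larvae on MYb65. On MYb65, 2 passed in the 71 libraries and 2 without the count filter. Leaving out the replicates of 1 number gave 0 to 3 members on MYb71, 1 to 2 on MYb65 and 0 to 3 on Mix. Within stages, DESeq2 gave 8 calls over the 18 comparisons, with no share of all genes beside them. Leaving out a single library gave 2 to 6 (6 without OP50 L2 replicate 4). The replicate block gave 1 where 3 stood without it, ins-6 on Mix at L2 (log2 change 1.43, adjusted p = 0.0361). Besides ins-19 on MYb65, the block ended the calls of ins-12 on MYb65 at L3 (adjusted p = 0.0771) and of ins-19 on MYb71 at Ad7 (0.0676), where equal numbers did not pair the libraries. With the replicate block across stages, 2, 1 and 2 members passed on MYb71, MYb65 and Mix as before. Members below about 1 CPM, such as ins-19 outside Ad7 on OP50, rest on few reads.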
